A study of Homo sapiens with 9 samples.

Results

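The effects of siRNA 2 on messenger RNA were set against those of siRNA 1, both directed at TRMT12, in SKbr3 cells, an ERBB2-amplified human breast cancer line. The comparison rested on 6 of the 9 hybridisations of the study, chosen by their labels: 3 of cells given TRMT12 siRNA-2 and 3 of cells given TRMT12 siRNA-1. Each array also carried cells given a control siRNA in its second channel. On arrays 1 and 2 of each siRNA the knockdown RNA was labelled with Cy5, and on array 3 the dyes were exchanged, so siRNA 2 and siRNA 1 were matched for dye. The 3 arrays of a further siRNA, siRNA 3, entered the fit only to estimate the spread and the dye effect.

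TRMT12, now named TYW2, encodes an enzyme of wybutosine synthesis, which builds a bulky base beside the anticodon of phenylalanine tRNA and is known for keeping the ribosome in frame. A small interfering RNA loads into Argonaute and guides cleavage of a matching transcript, and it can also lower other transcripts that pair with its seed. For that reason knockdown studies commonly use several siRNAs of different sequence against 1 gene. The question of this comparison was which genes and pathways differed between siRNA 2 and siRNA 1 at a similar knockdown of TRMT12.

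Values are log2 ratios of knockdown over control after loess normalization of each array, and a difference is siRNA 2 minus siRNA 1 from a limma fit with a dye term. A probe was called at a Benjamini-Hochberg adjusted p under 0.05 over all 28259 probes tested, which covered 14173 named genes. No label names separate cultures for the arrays of a group, so each p-value reflects array-to-array spread that could be purely technical. A single control siRNA is described for the series, yet the labels number the control in step with the knockdown, and it is unknown if the arrays had control RNA in common. The siRNA sequences were not used here. Median signals on the 6 arrays ranged from 131 to 456 intensity units, and probes with no ratio made up 2.68% to 24.4% of an array. Of 8 luminal markers, KRT8, KRT18, KRT19, EPCAM and ERBB2 had medians of 28495 units (EPCAM) or more with siRNA 2, and FOXA1, GATA3 and CDH1 had 1642, 996 and 654 units. Of 6 basal or mesenchymal markers, ZEB1 had 4019, KRT14 1388, KRT5 583, CDH2 118 and VIM 87.6 units with siRNA 2, and TP63 lay at the floor of 1 unit. Levels of different probes cannot be ranked, and neither set had a called difference between siRNA 2 and siRNA 1. The T cell marker CD3E and the endothelial marker PECAM1 lay at that floor too. The other 6 stromal, endothelial and blood markers had medians from 79.2 units for PDGFRB to 2126 units for COL1A1 with siRNA 2, and their part in the results was not tested. Ratios went with the dye more than with the siRNA across arrays, as the dye-swapped arrays of siRNA 2 and siRNA 1 correlated at 0.62 over probes, and those of 1 siRNA in opposite dyes at 0.04 to 0.20. Array 2 of siRNA 2 had the widest spread of ratios (SD 0.772, against 0.266 to 0.476 on the other 5).

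Both siRNAs lowered TRMT12 messenger RNA, and no difference between them was called. Its log2 ratios were -2.62, -2.62 and -2.36 with siRNA 2, and -2.55, -2.73 and -2.65 with siRNA 1. The values of siRNA 2 and siRNA 1 overlapped, and only array 3 of siRNA 2 stood above all arrays of siRNA 1. After dye adjustment 17.6% of the control level was left with siRNA 2 and 16.3% with siRNA 1. The difference was 0.11 (SE 0.0858, 95% interval -0.09 to 0.31, limma adjusted p = 0.508). An exact two-sided permutation test of the 3 against 3 arrays gave p = 0.4, where 0.1 is the smallest it can give. This test exchanged arrays across dye orientations, so it did not keep the dye matching. Among the 6 measured genes of wybutosine synthesis none was called. The other members lay between a difference of -0.16 for LCMT2, which acts after TRMT12 in the pathway (adjusted p = 0.564), and 0.20 for TYW5, which hydroxylates the base (adjusted p = 0.484). Both were dim probes.

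Beside this similar knockdown, 732 probes were called different between siRNA 2 and siRNA 1, 2.59% of those tested. Of these, 279 were higher with siRNA 2 (0.987%) and 453 were lower (1.6%). At least 1.5-fold, 65 were higher and 180 were lower. Among the 453 lower probes, the siRNA 2 ratio was the larger in size for 186 and the siRNA 1 ratio for 267. Among the 279 higher probes, it was the siRNA 2 ratio for 95 and the siRNA 1 ratio for 184. Both sides of the comparison thus held transcripts on which siRNA 2 departed further from control and transcripts on which siRNA 1 did. For scale, 10.5% of probes rose and 9.74% fell with siRNA 2 against control, and 11.6% rose and 11.3% fell with siRNA 1.

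The count of calls rested on the spread shared over all 9 arrays. With only the 6 arrays of siRNA 2 and siRNA 1, limma called 0 probes, although 4380 had an unadjusted p under 0.05, and the smallest adjusted p was 0.0993. Without 1 array at a time the count for siRNA 2 minus siRNA 1 was 89, 249 and 557 for arrays 1 to 3 of siRNA 2, and 72, 69 and 40 for arrays 1 to 3 of siRNA 1. Of 83 named probes called here, 20 were called in each of these 6 fits, and all 83 kept their direction in them. Among the 55 entries chosen as list members 8 were called in each of the 6 fits and 27 in none. The named genes were chosen by a rule that used the call, the size of the difference and the absence of overlap among the 6 arrays, so their separation is a property of the rule. Of the 24883 probes with ratios on the 6 arrays, 16.9% had no overlap, and 2.66% were also called.

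**Figure D1:**
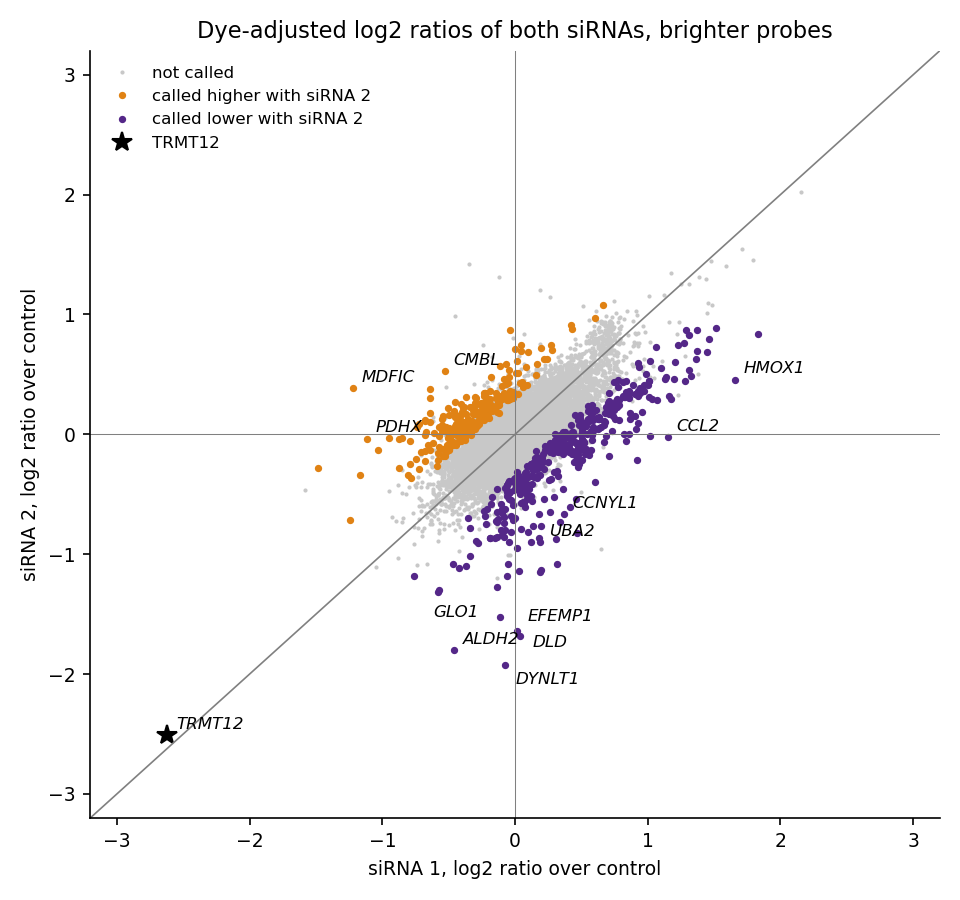
Dye-adjusted log2 ratios over control of the brighter tested probes, with siRNA 2 on the vertical and siRNA 1 on the horizontal axis. Points on the diagonal are equal in both, and orange and purple points are those called higher or lower with siRNA 2. TRMT12 (star) lies close to the diagonal at -2.51 with siRNA 2 and -2.62 with siRNA 1, while DYNLT1, DLD, EFEMP1 and GLO1 lie well below it near 0 for siRNA 1.

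The 4 largest negative differences called among bright probes, those of DYNLT1, DLD, EFEMP1 and GLO1, were of transcripts lowered by siRNA 2 and not called against control with siRNA 1. DYNLT1, a light chain of the dynein motor, had ratios of -1.92, -1.89 and -1.84 with siRNA 2, and 0.12, 0.08 and -0.30 with siRNA 1. DLD, the dihydrolipoamide dehydrogenase shared by the mitochondrial keto-acid dehydrogenases and the glycine cleavage system, had -1.56, -1.72 and -1.68 with siRNA 2, and 0.20, 0.06 and -0.04 with siRNA 1. EFEMP1, the matrix glycoprotein fibulin-3, had -1.64, -1.67 and -1.59 with siRNA 2, and 0.06, 0.08 and -0.06 with siRNA 1. All 3 transcripts were low on each siRNA 2 array in both dye orientations and close to 0 on each siRNA 1 array. The differences were -1.85 for DYNLT1 (SE 0.109, adjusted p = 0.00295), -1.72 for DLD (SE 0.0958, adjusted p = 0.00295) and -1.66 for EFEMP1 (SE 0.0677, adjusted p = 0.00204). With siRNA 2, 26.3% of the control level of DYNLT1 was left, 31.1% of DLD and 32% of EFEMP1. With siRNA 1 the corresponding values were 95%, 103% and 101%.

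GLO1 and ALDH2, a pair of enzymes that clear reactive carbonyls, showed the same direction. GLO1, glyoxalase I, which acts on methylglyoxal, had -1.54, -1.55 and -1.45 with siRNA 2, and -0.02, -0.12 and -0.17 with siRNA 1, a difference of -1.41 (SE 0.0756, adjusted p = 0.00295). ALDH2, the mitochondrial acetaldehyde dehydrogenase, had -1.91, -1.66 and -1.76 with siRNA 2, and -0.45, -0.31 and -0.54 with siRNA 1, a difference of -1.34 (SE 0.113, adjusted p = 0.00636). ALDH2 thus also fell with siRNA 1 against control (-0.46, adjusted p = 0.00851), to 72.8% of the control level, while siRNA 2 left 28.7%. The other 16 measured aldehyde dehydrogenases and glyoxalases were not called, and the median of the 18 was -0.02, against 0.01 over all genes. Calls were 11.1% of this list, against 3.41% of all genes called in either direction. Both called genes were picked above for the size of their difference, so this share is no separate support.

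The other transcripts lowered mainly by siRNA 2 were UBXN8, which ties the VCP ATPase to the endoplasmic reticulum, the ectoenzyme NT5E (CD73), the zinc-finger protein RBAK, the ubiquitin ligase RNF149 and the lectin SIGLEC6. Their differences were -1.39, -1.33, -1.33, -1.18 and -1.17, with adjusted p between 0.00295 and 0.0262. NT5E had -1.18, -1.46 and -0.92 with siRNA 2, and 0.00, 0.08 and 0.35 with siRNA 1. UBXN8 and RBAK were less even, with array 2 of siRNA 2 the lowest at -1.63 and -1.62 and arrays 1 and 3 between -1.17 and -0.74. Leaving out any array of siRNA 1 ended both calls, as did array 3 of siRNA 2 for UBXN8 and array 1 of siRNA 2 for RBAK. ALDH2 and NT5E lost the call without array 3 of siRNA 1. SIGLEC6 had -1.47, -1.45 and -0.78 with siRNA 2, and -0.21, -0.23 and 0.25 with siRNA 1. A second, dim probe for SIGLEC6 gave -0.31 (adjusted p = 0.487). That the arrays of siRNA 2 lay below those of siRNA 1 in these genes follows from the rule that chose them.

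HMOX1 and CCL2 were lower with siRNA 2 through a rise with siRNA 1 against control. HMOX1, heme oxygenase-1, had 0.53, 0.52 and 0.39 with siRNA 2, and 1.80, 1.78 and 1.47 with siRNA 1, a difference of -1.20 (SE 0.079, adjusted p = 0.00331). It rose against control with both, to 137% with siRNA 2 and 315% with siRNA 1. CCL2, a monocyte chemokine, had -0.21, -0.22 and 0.20 with siRNA 2, and 0.99, 1.03 and 1.28 with siRNA 1, a difference of -1.17 (SE 0.0743, adjusted p = 0.00295). It stood at 98.3% of control with siRNA 2, which was not called (adjusted p = 0.764), and at 222% with siRNA 1.

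Among transcripts higher with siRNA 2, 11 of the 12 largest bright differences had a fall with siRNA 1 against control. MDFIC, a MyoD family inhibitor domain protein, had 0.04, 0.38 and 0.54 with siRNA 2, and -1.37, -1.52 and -0.97 with siRNA 1, a difference of 1.61 (SE 0.111, adjusted p = 0.00347). PDHX, the protein that anchors DLD in the pyruvate dehydrogenase complex, had -0.16, -0.26 and 0.17 with siRNA 2, and -1.21, -1.30 and -0.99 with siRNA 1, a difference of 1.08 (SE 0.0769, adjusted p = 0.00366). TARS2, the mitochondrial threonyl-tRNA synthetase, had 0.02, -0.05 and -0.27 with siRNA 2, and -0.92, -0.98 and -1.11 with siRNA 1, a difference of 0.90 (SE 0.0635, adjusted p = 0.00359). In all 3 the siRNA 1 arrays were low in both dye orientations. With siRNA 2, MDFIC stood at 130% of control, PDHX at 97.6% and TARS2 at 91.5%. With siRNA 1, 42.9% of MDFIC, 46.1% of PDHX and 48.9% of TARS2 was left.

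MDFIC was also called higher against control with siRNA 2 (0.38, adjusted p = 0.0188), whereas PDHX (adjusted p = 0.679) and TARS2 (adjusted p = 0.0937) were not called. A fall with siRNA 1 and no call against control with siRNA 2 was also measured for DEGS1, the last enzyme of ceramide synthesis, DDOST, a subunit of the oligosaccharyltransferase, SNRNP200, the helicase of the spliceosome's U5 particle, the scaffold protein GRIP2, the spindle protein TROAP and the metallothionein MT1H. Their differences lay between 0.79 and 0.92, with adjusted p between 0.00396 and 0.0128. A second probe of DEGS1 was also called (0.74, adjusted p = 0.0068), whereas a second probe of SNRNP200, a dim one, gave -0.20 (adjusted p = 0.656). Second bright probes of TARS2 (0.46, adjusted p = 0.0566), TROAP (0.27, adjusted p = 0.121) and MT1H (0.41, adjusted p = 0.164) were positive and not called. Further, dim probes of GRIP2 gave 0.32 (adjusted p = 0.592) and 0.17 (adjusted p = 0.23). They stood at 0.15 and -0.10 against control with siRNA 1. FABP5, a fatty acid carrier, differed the other way round, with 0.57, 0.75 and 1.02 with siRNA 2, and -0.29, -0.31 and 0.21 with siRNA 1. Its difference was 0.91 (SE 0.0947, adjusted p = 0.0107) and that of its second probe 0.59 (adjusted p = 0.0296), so here the rise was with siRNA 2. GRIP2, TROAP, MT1H and FABP5 lost the call without array 1 of siRNA 2 and without each of the arrays of siRNA 1.

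**Figure D2:**
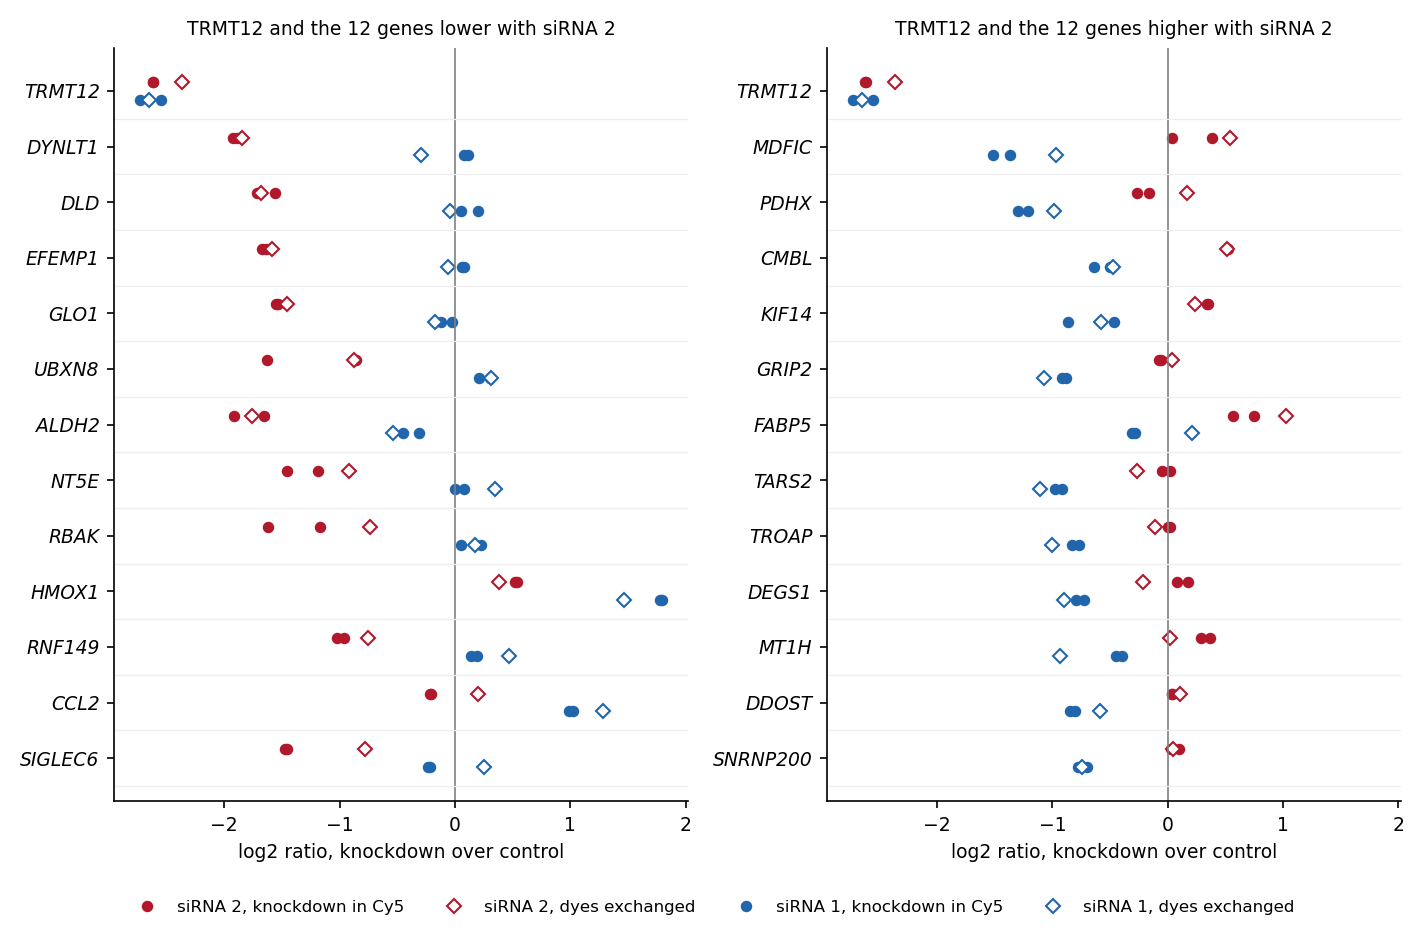
Log2 ratios of knockdown over control on each array for TRMT12 and the 12 bright genes with the largest negative (left panel) and positive (right panel) differences, siRNA 2 above siRNA 1 in each row. Filled circles are arrays with the knockdown in Cy5 and open diamonds the arrays with dyes exchanged. TRMT12 overlaps between siRNA 2 and siRNA 1, while the named genes do not, by the rule that chose them.

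DLD and PDHX belong to the same assembly, the pyruvate dehydrogenase complex, which feeds the citric acid cycle. siRNA 2 lowered DLD and left PDHX near control, and siRNA 1 did the reverse. The other core subunits were not called: PDHA1 differed by -0.04 (adjusted p = 0.809), PDHB by -0.02 (adjusted p = 0.902) and DLAT by 0.00 (adjusted p = 0.997). Over the 37 measured genes of the keto-acid dehydrogenases and the citric acid cycle, DLD and PDHX were the only calls and the median difference was 0.02. These calls were 5.41% of the list, against 3.41% of all genes called in either direction. DLD and PDHX were picked above for the size of their difference, so this share is no separate support. With siRNA 3, DLD stood at 0.24 and PDHX at 0.34 against control.

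Bright probes with a gene symbol, a called difference and no overlap between siRNA 2 and siRNA 1 arrays were searched for opposite movements. For 57 of them the siRNAs moved the transcript in opposite directions, each with an adjusted p under 0.05 against its control. Of these, 29 were higher and 28 lower with siRNA 2. The share of all bright probes with opposite movements was not counted. RNF149 had -0.97, -1.02 and -0.76 with siRNA 2, and 0.14, 0.19 and 0.47 with siRNA 1. UBA2, a subunit of the enzyme that activates SUMO, had -0.86, -0.91 and -0.91 with siRNA 2, and 0.31, 0.13 and 0.15 with siRNA 1, a difference of -1.09 (SE 0.0679, adjusted p = 0.00295). CCNYL1, a cyclin Y relative, had -0.63, -0.69 and -0.64 with siRNA 2, and 0.45, 0.37 and 0.31 with siRNA 1, a difference of -1.03 (SE 0.0629, adjusted p = 0.00295). Each was below 0 on the 3 arrays of siRNA 2 and above 0 on the 3 arrays of siRNA 1. CMBL, a hydrolase, was higher with siRNA 2 and even across arrays, with 0.51, 0.52 and 0.51 with siRNA 2, and -0.50, -0.64 and -0.47 with siRNA 1, a difference of 1.05 (SE 0.0655, adjusted p = 0.00295). KIF14, a kinesin of cytokinesis, had 0.35, 0.34 and 0.24 with siRNA 2, and -0.46, -0.86 and -0.58 with siRNA 1, a difference of 0.94 (SE 0.109, adjusted p = 0.0142). That call ended without array 1 of siRNA 2 or array 3 of siRNA 1.

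Dimmer probes gave large but less even differences. LAMB4, a laminin chain, had -1.81, -1.66 and -0.94 with siRNA 2, and -0.15, -0.02 and 0.09 with siRNA 1, a difference of -1.44 (SE 0.152, adjusted p = 0.0111). PABPC4, a poly(A)-binding protein, differed by -1.21 (adjusted p = 0.0206) on its dim probe and by -0.90 (adjusted p = 0.0132) on a bright one. NFAT5 (-1.55, adjusted p = 0.0368) and IL1RL1 (-1.18, adjusted p = 0.00843) were called on dim probes only, and brighter probes of these genes gave -0.01 (adjusted p = 0.966) and -0.03 (adjusted p = 0.882). On the higher side stood COL5A2 (1.07), FBXO36 (1.02), DDC (0.94) and TET1 (0.87), with adjusted p between 0.00775 and 0.036. None of these 8 dim genes was called in each of the 6 fits that left out an array.

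Among ATF4 targets and amino acid response genes the calls were all lower with siRNA 2. This programme is switched on when phosphorylation of eIF2 slows general translation and ATF4 is made, and it covers asparagine and serine synthesis, amino acid transport and feedback regulators. Of 32 measured members, 0 were called higher and 9 lower, where 1.21% and 2.19% of all genes were called higher and lower on their brightest probe. These shares are the background for each gene list below. The median difference was -0.30, against 0.01 over all genes, and 30 of 32 members were below 0. The list's median log2 ratio over control was 0.25, 0.27 and 0.11 on the siRNA 2 arrays, and 0.55, 0.63 and 0.46 on the siRNA 1 arrays. Both siRNAs therefore stood above 0 on each array, siRNA 2 lower than siRNA 1, and 16 members rose and 5 fell against control with siRNA 2, while 23 rose and 1 fell with siRNA 1.

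PPP1R15A, the subunit that directs dephosphorylation of eIF2, had 0.61, 0.47 and 0.41 with siRNA 2, and 1.23, 1.43 and 1.35 with siRNA 1, a difference of -0.84 (SE 0.0809, adjusted p = 0.00861). GDF15, a stress-induced secreted factor, had 0.28, 0.35 and 0.28 with siRNA 2, and 0.92, 0.90 and 1.17 with siRNA 1, a difference of -0.69 (SE 0.106, adjusted p = 0.0331). ATF3, a stress-induced transcription factor, had 0.50, 0.50 and 0.35 with siRNA 2, and 1.18, 0.81 and 1.05 with siRNA 1, a difference of -0.56 (SE 0.105, adjusted p = 0.0474). These 3 rose against control with both siRNAs, siRNA 2 less, and their arrays did not overlap. PPP1R15A lost the call without array 2 or array 3 of siRNA 1, and GDF15 and ATF3 lost it whichever of the 6 arrays was left out. The other called members were DDIT4 (-0.56), ASNS, asparagine synthetase (-0.54), CEBPG (-0.46), TRIB3 (-0.46), DDIT3 or CHOP (-0.40) and NUPR1 (-0.35), with adjusted p between 0.0103 and 0.043. For DDIT3 the knockdown channel alone was 0.26 higher with siRNA 2 and the control channel 0.67 higher, so its difference lay in the control channel. A second bright probe of ASNS gave -0.32 (adjusted p = 0.127). ATF4 itself, which is controlled largely at translation, differed by -0.25 (adjusted p = 0.125). Whichever of the 6 arrays was left out, the number called in this list was between 0 and 3 (0 without array 2 or array 3 of siRNA 1), while the median stayed between -0.32 and -0.28.

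Heat shock proteins and co-chaperones are the folding machinery induced by unfolded cytosolic proteins. Of 20 measured members 0 were called higher with siRNA 2 and 6 lower, where 1.21% and 2.19% of all genes were called. The median difference was -0.30, against 0.01 over all genes, and 19 of 20 were below 0. The list's median ratio was 0.04, 0.01 and -0.05 on the siRNA 2 arrays, and 0.32, 0.34 and 0.31 on the siRNA 1 arrays, so the list was near the control level with siRNA 2 and above it with siRNA 1. DNAJB6, a co-chaperone against aggregation, had -0.61, -0.34 and -0.74 with siRNA 2, and 0.59, 0.48 and 0.30 with siRNA 1, a difference of -1.02 (SE 0.083, adjusted p = 0.00629). HSPB8, a small heat shock protein, had 0.42, 0.21 and 0.26 with siRNA 2, and 1.05, 1.02 and 1.03 with siRNA 1, a difference of -0.74 (SE 0.074, adjusted p = 0.00961). A second bright probe of DNAJB6 gave a smaller difference of -0.18 (adjusted p = 0.21). DNAJB6 lost the call without array 3 of siRNA 1, and HSPB8 whichever array of siRNA 1 was left out.

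DNAJB1 (-0.59), BAG3, the partner of HSPB8 (-0.56), HSPH1 (-0.51) and CRYAB (-0.48) made up the rest, with adjusted p between 0.014 and 0.0414. CRYAB differed by -0.13 in the knockdown channel and 0.35 in the control channel. The constitutive HSPA8 (-0.10, adjusted p = 0.539) and HSP90AB1 (-0.06, adjusted p = 0.82) were not called. Between 0 and 4 members of the list were called when an array was left out (0 without array 3 of siRNA 1), with medians between -0.32 and -0.26. With each array only centred on its median, in place of loess, the list's median was -0.06 and that of the ATF4 list -0.18, against 0.03 over all genes.

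The promoters of the called members of these lists are shown where they hold a sequence of the factor that names the list, since those genes were called in the same direction. The searched motif of the ATF4 list was TGATGNAA, the composite element of ATF4 and C/EBP, and that of the heat shock list was an adjoining pair of heat shock units, GAANNTTC or TTCNNGAA, which can overlap each other. Windows were the 250 bases before the start site in RefSeq, build GRCh38.p14, read on both strands, and capitals mark the matches.
ASNS promoter, chr7:97872409-97872658, minus strand: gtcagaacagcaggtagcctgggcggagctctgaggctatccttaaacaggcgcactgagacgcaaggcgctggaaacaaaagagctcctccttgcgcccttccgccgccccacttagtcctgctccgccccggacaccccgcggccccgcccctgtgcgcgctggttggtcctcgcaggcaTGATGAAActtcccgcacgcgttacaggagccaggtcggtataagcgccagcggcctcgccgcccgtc
ATF3 promoter, chr1:212565157-212565406, plus strand: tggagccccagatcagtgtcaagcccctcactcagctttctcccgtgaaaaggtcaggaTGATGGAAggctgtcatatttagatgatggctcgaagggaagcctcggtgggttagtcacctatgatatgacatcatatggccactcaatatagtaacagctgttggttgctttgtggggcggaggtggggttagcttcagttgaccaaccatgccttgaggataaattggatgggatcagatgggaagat
HSPB8 promoter, chr12:119178681-119178930, plus strand: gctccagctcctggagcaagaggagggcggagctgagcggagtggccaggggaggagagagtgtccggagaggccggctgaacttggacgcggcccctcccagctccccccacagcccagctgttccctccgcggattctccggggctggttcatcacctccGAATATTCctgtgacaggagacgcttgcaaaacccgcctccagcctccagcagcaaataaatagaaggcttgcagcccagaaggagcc
DNAJB6 promoter, chr7:157336754-157337003, plus strand: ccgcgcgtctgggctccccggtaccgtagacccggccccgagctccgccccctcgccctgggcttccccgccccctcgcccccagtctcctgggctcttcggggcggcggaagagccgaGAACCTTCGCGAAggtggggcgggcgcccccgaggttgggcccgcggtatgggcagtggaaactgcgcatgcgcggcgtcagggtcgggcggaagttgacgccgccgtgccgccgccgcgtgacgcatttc
TGATGNAA was found in 2 of the 8 called ATF4 list members with a promoter sequence, ASNS (from -68 relative to the start site) and ATF3 (from -191), and in 2 of the 18 members not called. It occurs in 3.19% of 27305 promoters. A heat shock pair was found in 2 of the 5 called heat shock members with a sequence, HSPB8 (from -88) and DNAJB6 (from -131), and in 3 of the 14 not called. GAANNTTC alone was found in 2 of the 5 and 3 of the 14, and it occurs in 5.85% of the promoters. TTCNNGAA was found in 1 of the 5 and 1 of the 14, and it occurs in 6.72%. The share of promoters with either of them was not counted, so the combined counts have no background of their own.

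**Figure D3:**
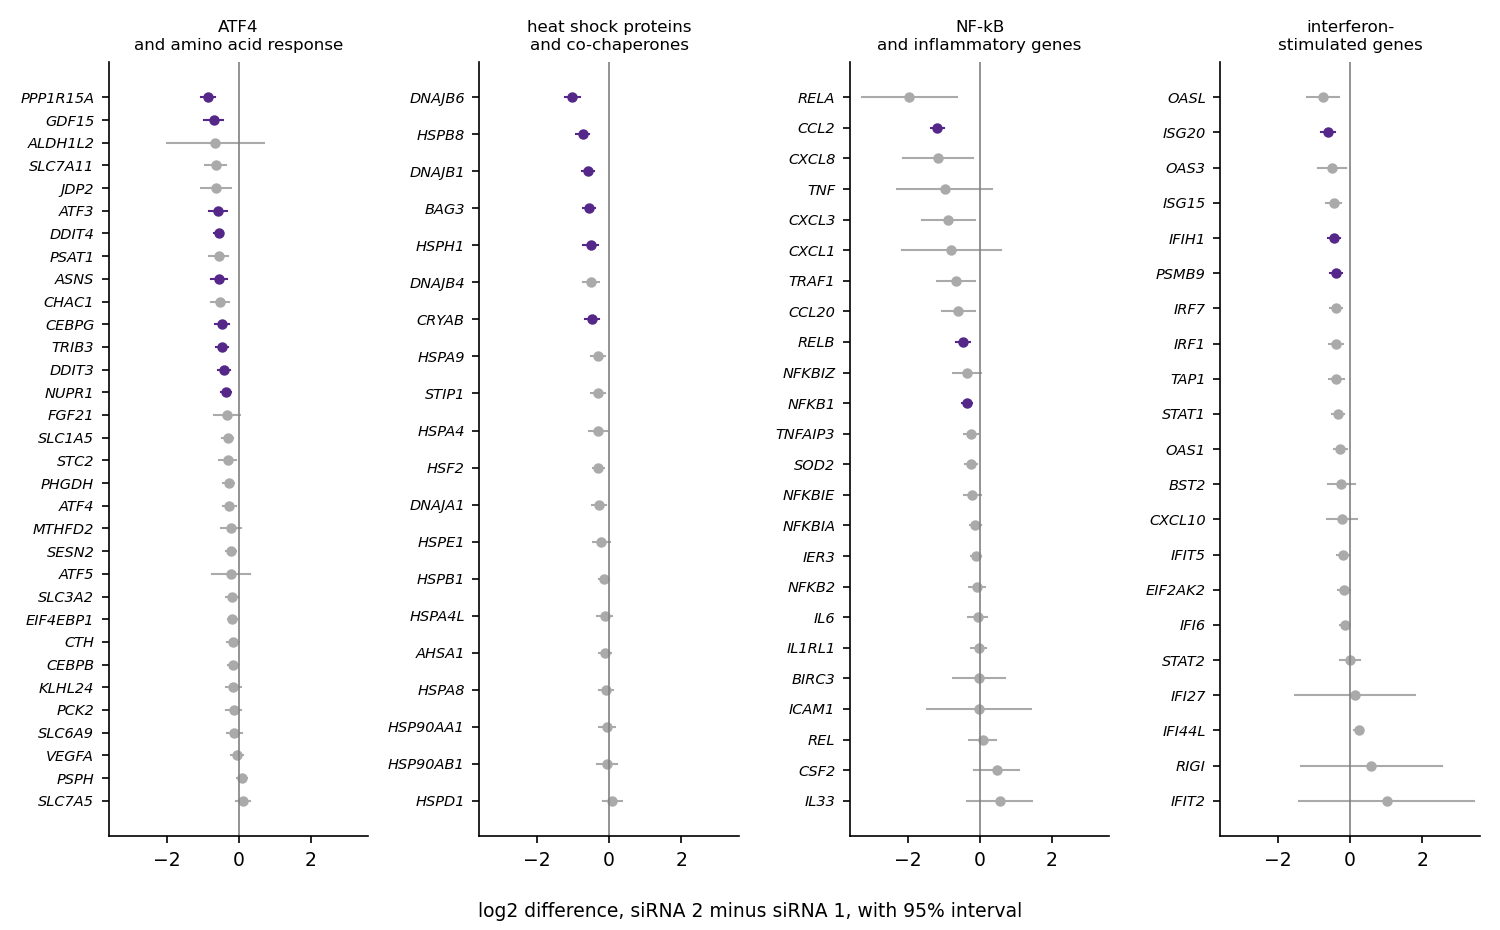
Differences of siRNA 2 minus siRNA 1 on the log2 scale for all measured members of 4 gene lists, with the 95% interval of the limma fit. Purple members were called, grey ones were not. In the ATF4 list 30 of 32 members and in the heat shock list 19 of 20 lie below 0, from -0.84 for PPP1R15A and -1.02 for DNAJB6 upward.

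Inflammatory and interferon-stimulated genes had fewer calls. Over all genes 1.21% were called higher and 2.19% lower. Among 24 NF-kB and inflammatory genes 0 were called higher and 3 lower, with a median difference of -0.23. The calls were CCL2, described above, RELB (-0.45, adjusted p = 0.0459) and NFKB1 (-0.34, adjusted p = 0.041), both subunits of NF-kB. The list's median was 0.32, 0.11 and 0.12 on the siRNA 2 arrays, and 0.46, 0.50 and 0.43 on the siRNA 1 arrays. Among 21 interferon-stimulated genes 0 were called higher and 3 lower, with a median of -0.27: the exonuclease ISG20 (-0.62, adjusted p = 0.0218), the RNA sensor IFIH1 (-0.45, adjusted p = 0.0385) and the immunoproteasome subunit PSMB9 (-0.40, adjusted p = 0.0409). This list's median was -0.09, 0.05 and -0.05 on the siRNA 2 arrays, and 0.24, 0.31 and 0.32 on the siRNA 1 arrays. With siRNA 2 none of the 3 interferon genes was called against control (adjusted p = 0.754 for PSMB9, 0.844 for IFIH1 and 0.239 for ISG20). With an array left out, 1 gene stayed called among the NF-kB genes and 0 or 1 among the interferon-stimulated genes. The RNA interference genes themselves, 18 measured, had 0 calls and a median of -0.02.

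The counts that follow stand beside 1.21% of all genes called higher and 2.19% lower. In the endoplasmic reticulum list, 0 of 24 members were called higher and 2 lower, with a median of -0.21. These were the eIF2 kinase EIF2AK3, known as PERK (-0.59, adjusted p = 0.0338), and SEL1L of the degradation pathway (-0.46, adjusted p = 0.0474). With an array left out 0 or 1 of the 24 was called, SEL1L in none of the 6 fits, and with median centring the list's median was -0.08. Of 17 cytosolic aminoacyl-tRNA synthetases 0 were called higher and 3 lower, with a median of -0.18. Whichever of the 6 arrays was left out 0 were called, and the list's median moved to -0.03 with median centring. The authors' calibrated ratios gave a median of -0.10 for it. TARS1 (-0.41), NARS1 (-0.41) and CARS1 (-0.35) had adjusted p between 0.0316 and 0.0482, and a second bright probe of TARS1 gave 0.02 (adjusted p = 0.931). TARS1, the cytosolic threonyl enzyme, and TARS2, the mitochondrial one, thus differed in opposite directions on these probes. Among 25 p53 target genes 1 was called higher (SESN1, 0.33) and 4 lower: GDF15, GADD45A (-0.50, adjusted p = 0.0462), the cell cycle inhibitor CDKN1A (-0.49, adjusted p = 0.0461) and the BH3-only gene BBC3 (-0.47, adjusted p = 0.0213). The median of the p53 list was -0.16, and -0.09 with median centring. Whichever of the 6 arrays was left out, all 5 calls of the p53 list were lost.

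**Figure D4:**
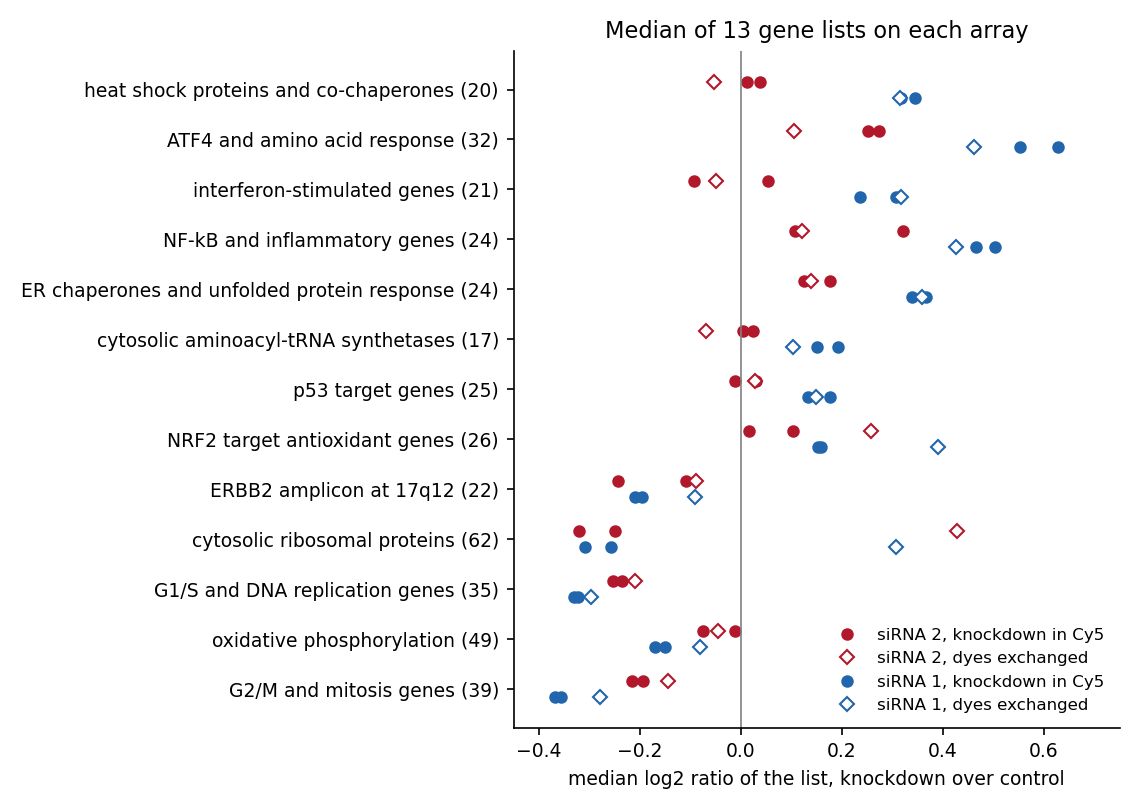
Median log2 ratio over control of 13 gene lists on each array, siRNA 2 above siRNA 1 in each row, with the number of measured members in brackets. Filled circles are arrays with the knockdown in Cy5 and open diamonds those with dyes exchanged. With siRNA 1 the ATF4 and heat shock lists sit further right and the G2/M list further left, and the ribosomal list lies left of 0 with the knockdown in Cy5 and right of 0 with the dyes exchanged.

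The calls among genes of G2 and mitosis lay on the other side. Of 39 measured members 5 were called higher with siRNA 2 and 0 lower, where 1.21% and 2.19% of all genes were called. The median difference was 0.13, against 0.01 over all genes, and 32 of 39 were above 0. The list's median was -0.19, -0.21 and -0.14 on the siRNA 2 arrays, and -0.36, -0.37 and -0.28 on the siRNA 1 arrays, below control in both and less so with siRNA 2. After KIF14, the calls were CENPF, a kinetochore protein (0.48, adjusted p = 0.043), the kinase AURKA (0.47, adjusted p = 0.0321), the checkpoint gene MAD2L1 (0.42, adjusted p = 0.0249) and the topoisomerase TOP2A (0.38, adjusted p = 0.0371). A second bright probe of AURKA gave 0.02 (adjusted p = 0.935). TOP2A rose against control with both siRNAs (0.63 with siRNA 2 and 0.24 with siRNA 1), and its knockdown channel alone differed by -0.10, opposite to its ratio. With an array left out, 0 or 1 of the 39 was called, and with median centring the list's median was 0.26. Among 35 genes of G1/S and DNA replication, the primase PRIM1 was called higher (0.45, adjusted p = 0.0258) and cyclin D1, CCND1, lower (-0.48, adjusted p = 0.0338). These calls were 5.71% of that list, against 3.41% of all genes called in either direction, and its median was 0.06.

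Secreted and matrix genes held some of the strongest single differences without a common direction. Of 46 measured, 1 was called higher (COL5A2) and 5 lower, where 1.21% and 2.19% of all genes were called. Among the lower ones were EFEMP1, the urokinase PLAU (-1.03, adjusted p = 0.00295), the crosslinking enzyme LOXL2 (-0.52, adjusted p = 0.0371) and CCN1 (-0.51, adjusted p = 0.0367). The median was -0.04. PLAU had 0.09, 0.08 and -0.11 with siRNA 2, and 1.15, 1.15 and 0.86 with siRNA 1. It was near control on the siRNA 2 arrays and high on each siRNA 1 array. Among 24 TGF-beta and WNT targets 1 was called higher (ID2, 0.53) and 4 lower, among them the WNT antagonist DKK1 (-0.77, adjusted p = 0.00501) and TGFBI (-0.61, adjusted p = 0.013). With an array left out, 3 to 5 of the matrix genes and 2 to 5 of the TGF-beta and WNT targets were called, and with median centring the matrix median was -0.16.

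The apoptosis list had 1 of 26 called higher (BCL2L11, 0.37) and 3 lower, where 1.21% and 2.19% of all genes were called. Among the lower ones were the executioner caspase CASP6 (-0.73, adjusted p = 0.00655) and BBC3. CASP6 had -1.06, -1.04 and -1.14 with siRNA 2, and -0.39, -0.25 and -0.41 with siRNA 1. CASP6 thus fell against control with both, more with siRNA 2, and lost its call without array 3 of siRNA 1, when 0 of the 26 were called. A second bright probe of CASP6 gave -0.31 (adjusted p = 0.128).

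The next 3 lists stand beside 1.21% of all genes called higher and 2.19% lower. Of 32 ERBB and MAPK response genes 0 were called higher and 4 lower, including the phosphatase DUSP5 (-0.67, adjusted p = 0.0193), the EGF receptor ligand AREG (-0.62, adjusted p = 0.0457) and IER5 (-0.51, adjusted p = 0.0203). Of 32 hypoxia and glycolysis genes 0 were called higher and 3 lower: the vasoactive peptide ADM (-0.74, adjusted p = 0.00866), NDRG1 (-0.58, adjusted p = 0.0189) and the oxygen sensor EGLN3 (-0.58, adjusted p = 0.0371). Among 26 NRF2 targets HMOX1 and NFE2L2, the gene of NRF2 itself (-0.38, adjusted p = 0.043), were called lower, with a median of -0.10. Median differences were -0.07 for the ERBB and MAPK list and -0.03 for the hypoxia list. With an array left out, 0 to 2 were called in the ERBB and MAPK list, 0 to 2 in the hypoxia list and 1 in the NRF2 list. With median centring the median turned positive for the hypoxia list (0.07) and the NRF2 list (0.02).

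Other lists gave few calls. In cholesterol synthesis, 2 of 25 were higher, MSMO1, a sterol methyl oxidase (0.67, adjusted p = 0.0105), and LBR (0.34, adjusted p = 0.044). Calls were limited to ASNS among 15 serine and one-carbon genes, SLC38A2 (-0.33, adjusted p = 0.0405) among 19 amino acid transporters, CLDN1 (-0.61, adjusted p = 0.0138) among 25 junction genes and KRT17 (-0.42, adjusted p = 0.0437) among 17 basal and mesenchymal markers. In oxidative phosphorylation UQCRB (0.38, adjusted p = 0.0468) was the call among 49, and among 62 ribosomal proteins it was RPL17 (0.50, adjusted p = 0.0249). ELF5 was higher (0.45, adjusted p = 0.0218) and ESR1, a dim probe with no ratio on array 2 of siRNA 2, lower (-1.02, adjusted p = 0.0226) among 28 luminal genes. Further, dim probes of ELF5 gave -0.03 (adjusted p = 0.942) and -0.16 (adjusted p = 0.777). FBXO32 was lower (-0.42, adjusted p = 0.0338) among 19 neighbours of TRMT12 at 8q24. Whichever of the 6 arrays was left out, LBR, ASNS, SLC38A2, KRT17, UQCRB, ELF5 and FBXO32 lost the call. MSMO1, CLDN1, RPL17 and ESR1 lost it whichever array of siRNA 1 was left out. CLDN1, RPL17 and ESR1 also lost it without array 1 of siRNA 2, and RPL17 without array 2 of siRNA 2. There were 0 calls among 18 fatty acid synthesis genes, 32 lysosomal genes, 22 genes of the ERBB2 amplicon and 18 stromal, endothelial and blood cell markers, against 3.41% of all genes called in either direction. A second probe of the lysosomal protease CTSC was called higher (0.52, adjusted p = 0.03).

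A difference between the siRNAs can lie in the knockdown channel or in the control channel of the same arrays, so both were compared after quantile scaling of intensities between arrays. For 73 of 83 named probes called here the difference was larger in size in the knockdown channel. Among all 732 called probes this held for 561. Over all tested probes both channels varied alike, with an SD of the difference of 0.431 in the knockdown channel and 0.438 in the control channel. DYNLT1 differed by -1.87 in the knockdown channel and -0.02 in the control channel, EFEMP1 by -1.52 and 0.14, and PDHX by 1.02 and -0.06. HMOX1 differed by -0.87 in the knockdown channel and 0.33 in the control channel, and CCL2 by -0.79 and 0.39, so part of these differences lay in the control channel. For the other 10, COL5A2, TET1, NDRG1, ISG20, GADD45A, IER5, RPL17, RELB, NFE2L2 and PRIM1, the control channel held the larger part. ISG20 differed by -0.15 in the knockdown channel and 0.47 in the control channel. For RELB (0.052) and NFE2L2 (0.082) the knockdown channel alone was slightly higher with siRNA 2, and for PRIM1 it was lower (-0.25), opposite to their ratios. No probe was called in the knockdown channel alone by limma, where 2374 had an unadjusted p under 0.05. What the control RNA contributed to these differences was not tested. For the ATF4 list the median was -0.37 in the knockdown channel and -0.09 in the control channel, and for the heat shock list -0.27 and -0.06, against -0.07 and -0.08 over all genes.

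**Figure D5:**
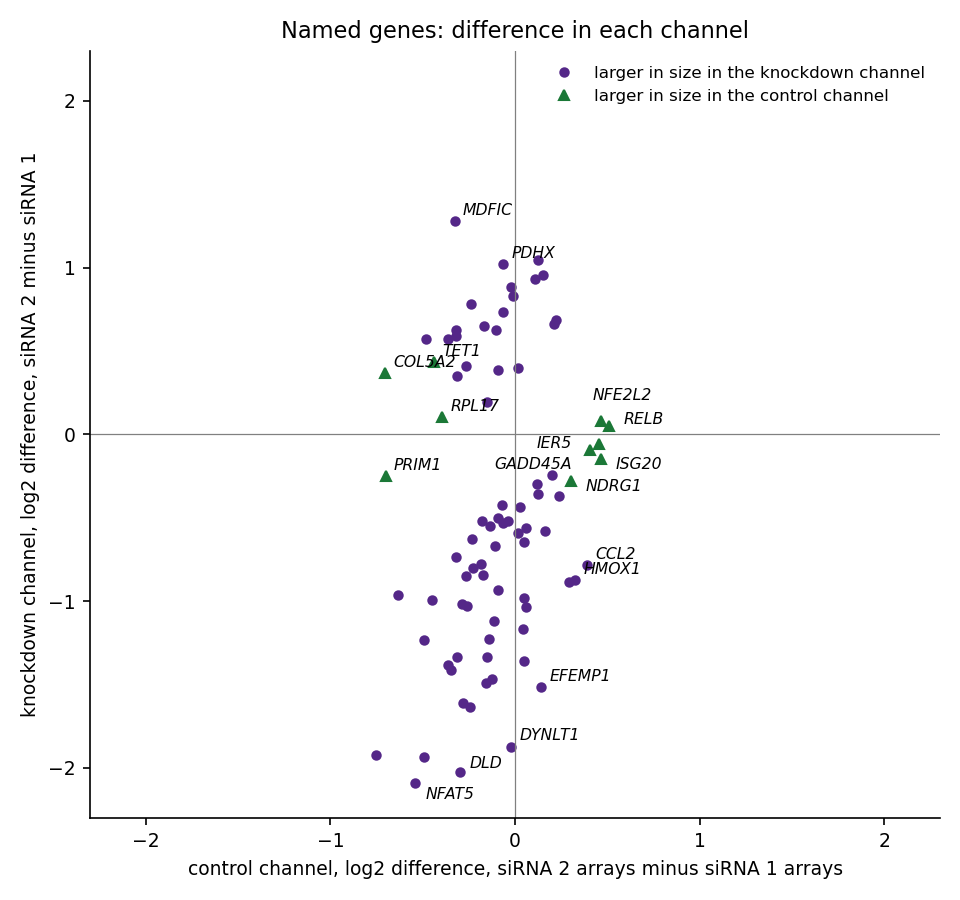
Difference between siRNA 2 and siRNA 1 arrays in the knockdown channel (vertical) and in the control channel (horizontal), in log2 units, for the 83 named probes called. Green triangles mark the 10 probes whose control channel differed more in size. DYNLT1, at -1.87 and -0.02, lies on the vertical axis, and RELB, at 0.052 and 0.51, lies beside the horizontal one.

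Other probes of the same genes bore on the calls as well. For 201 bright called genes with a further tested probe, 246 of 309 such probes (79.6%) had the same sign and 29 were called in the same direction, with 0 called the other way. Among genes with no call, 59.8% of further probes shared the sign of the leading probe.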

How the data were processed

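Per the labels' protocols, RNA of SKbr3 cells was amplified, labelled with Cy dyes and hybridised to spotted oligonucleotide arrays. Per the file headers, the authors deposited for each spot the intensity of both channels above local background, with a floor of 1, a spot quality (a fraction from 0 to 1) and a calibrated ratio of knockdown over control. A deposited table of log2 values equals the calibrated ratio on the log2 scale within 0.01 for all compared probes, with the sign turned on the dye-swapped arrays and column medians from -0.26 to 0.04. Columns of those arrays had been exchanged by the authors, per the series text. No source used here names the image program.

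The knockdown over control intensity ratio was normalized by loess within arrays (R 4.3.3, limma 3.58.1), with 960 blank spots given no weight. Of 35328 probes, 28259 were tested after the filter on dim probes (signal above 2 background standard deviations in either channel on at least 6 of 9 arrays, and ratios in both dye orientations, which alone left the same probes). The fit (lmFit, eBayes) estimated each siRNA's mean plus a dye effect over 9 arrays. Each gene list used the brightest probe of a gene, and bright means at or above the median log2 intensity of 8.64. Named genes were the largest called differences each way without overlap of the 6 arrays (12 bright and 4 dim, and 6 with opposite signs), and up to 3 called members of each list. Other called list members were named after their values were seen, and some genes that the rule names are not reported here. Members and lists were chosen with earlier results of these data known. The fit was tested on simulated data. Alternatives covered normalization, background, filters, dye, weights, channels and leaving out arrays. The number of arrays limits the precision.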

Additional observations from a re-analysis of the deposited data

Results flagged for a closer look

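Named bright genes moved in opposite directions by siRNA 2 and siRNA 1 drew attention because the difference between the siRNAs was itself tested and passed. Higher with siRNA 2 were MDFIC (1.61), CMBL (1.05), KIF14 (0.94), ELOC (0.73), ARL3 (0.68) and MSMO1 (0.67). Lower with siRNA 2 were RNF149 (-1.18), UBA2 (-1.09), CCNYL1 (-1.03), DNAJB6 (-1.02) and SWAP70 (-1.004). Their limma adjusted p-values for the difference lay between 0.00295 and 0.0226, and the rule itself required values under 0.05. ELOC (elongin C) stood at 0.27 with siRNA 2 and -0.45 with siRNA 1, and the ciliary GTPase ARL3 at 0.31 with siRNA 2 and -0.37 with siRNA 1. Leaving out any array of siRNA 1 ended the calls of ELOC, ARL3 and MSMO1. ELOC and ARL3 also lost the call without array 1 of siRNA 2, and ARL3 without array 2 of siRNA 2. A second bright probe of ELOC differed by 0.36 (adjusted p = 0.118), with 0.06 for siRNA 2 and -0.30 for siRNA 1. The second bright probe of DNAJB6 stood at -0.18 with siRNA 2 and 0.003 with siRNA 1, so it did not show the opposite rise. CCNYL1 stood at -0.67 with siRNA 2 and 0.36 with siRNA 1, and SWAP70 at -0.40 with siRNA 2 and 0.60 with siRNA 1. With siRNA 3, CCNYL1 stood at 0.27 and SWAP70 at -0.50 against control.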

How the results depend on the processing

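The count of 732 called probes for siRNA 2 minus siRNA 1 depended on the processing. It was 12 with median centring, 1473 with print-tip loess, 103 with the authors' calibrated ratios, 2384 with no background correction, 1645 when both channels had to show signal on each of the 6 arrays, and 2067 without spots of quality under 0.5. It was 0 with only the 6 arrays of siRNA 2 and siRNA 1, 72 with no dye term, 16 with only the arrays carrying the knockdown in Cy5 and 0 in the knockdown channel alone. Of the calls, 38.1% were higher with siRNA 2, against 26.4% with no dye term and 50.3% without array 3 of siRNA 2. The lowest and highest counts with an array left out were 40 and 557. The difference in TRMT12 was 0.29 on the dye-swapped arrays, -0.048 in the knockdown channel alone and 0.03 to 0.19 with an array left out. All 83 named calls kept their direction under the settings in which they could be computed, except NFE2L2 (0.082), RELB (0.052) and PRIM1 (-0.25) in the knockdown channel alone. The causes were not tested. With median centring 10 of the 83 stayed called, and with the authors' ratios 39. Dropping the filter on dim probes changed nothing by construction, since requiring ratios in both dye orientations already left the same 28259 probes. The median difference over all genes stayed between -0.07 and 0.03. No paired analysis was made because the array numbers follow accession order and name no pairs. Deviations of array 1 from the mean of the Cy5 arrays correlated at 0.035 between siRNA 2 and siRNA 1. The dye-swapped arrays were not compared in this way, so this value cannot settle pairing. The median standard error of a difference was 0.177 for dim and 0.0826 for bright probes.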

Other observations

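Metallothioneins are small cysteine-rich proteins that bind zinc and copper, and this family was picked after its values were seen and so carries no test of its own. Of 11 measured members, by the brightest probe of each, 3 were called higher with siRNA 2 and 0 lower, where 1.21% and 2.19% of all genes were called. The median difference was 0.41, with 8 of the 11 above 0 and 3 below. MT1HL1 (0.52), MT1F (0.49) and MT1B (0.46) had limma adjusted p-values between 0.0275 and 0.0386, and MT1G (0.58) and MT1X (0.34) were not called (0.0782 and 0.0537). The family's median over control was 0.09 with siRNA 2 and -0.29 with siRNA 1. These genes are near-identical in sequence, so their probes may share transcripts. Histone genes, picked the same way, had 1 of 19 members called lower with siRNA 2, H2BC3 (-0.90, adjusted p = 0.00636), and a median of -0.05.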
